A study of Mus musculus with 8 samples.

Results

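The Myc, Max and Mxd network was followed as 10 genes, namely *Myc*, *Mycn*, *Mycl*, *Max*, *Mxd1*, *Mxd3*, *Mxd4*, *Mxi1*, *Mnt* and *Mga*. They were taken by symbol from single-cell RNA-seq count matrices of thymic epithelial cells (TEC), and all 10 were listed among the 27514 genes that the 8 matrices had in common. In GRCm38 they include *Myc* at chr15:61985391-61990374, *Mxd1* at chr6:86647042-86669161, *Mxd3* at chr13:55325168-55329823 and *Mxd4* at chr5:34173883-34187720. TEC are the stromal cells that support T cell development, with cortical TEC (cTEC) and medullary TEC (mTEC) as the 2 main lineages, and the study asked how TEC differ in their transcripts between fetal and adult life. Every library came from the thymus of WT mice of the strain C57 B6 (CD45.2), without a transgene or treatment. Live cells with EpCAM and without CD45 were sorted, as total TEC at E13.5, as Ly51+ UEA-1- cells for cTEC at E15.5, at E17.5, in newborns (NB) and in adults, and as Ly51- UEA-1+ cells for adult mTEC. By the methods of the study, newborns were 0 to 2 days and adults 4 to 6 weeks old, of either sex, while the number of animals behind a library was not given in the sources used here. The fetal and newborn groups had 1 library apiece, and the adult cTEC and adult mTEC groups had 2.

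Myc, Mycn and Mycl are activators that bind E-box DNA as dimers with Max. The Mxd proteins (Mxd1, Mxd3, Mxd4 and Mxi1), Mnt and Mga compete for the same partner and the same sites, and the Mxd proteins and Mnt recruit Sin3 corepressors with histone deacetylases. The network is known for setting ribosome biogenesis, cell growth and entry into the cell cycle, with Mxd genes often expressed in cells that leave the cycle or differentiate. Myc RNA and protein are both short-lived, and *Myc* is also an early response gene.

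The libraries held 28334 called cells, of which 25750 had at most 5% mitochondrial UMIs and at most 5000 genes, and 25435 of those lay in epithelial-like clusters and were used. A UMI (unique molecular identifier) stands for 1 captured RNA molecule read at its 3′ end, so a count does not scale with transcript length. Levels are given as UMIs of a gene in CPM, counts scaled to a common total of UMIs for each library or cell fraction (counts per 1e6). The intervals are 95% exact Poisson intervals, which cover counting error only. Depth ranged from 2257967 UMIs in adult cTEC replicate 1 to 90103548 in E17.5 cTEC, with medians of 3996 to 11386 UMIs per cell, so the adult cTEC values (493 and 535 cells) are the least precise. The libraries came in 2 data sets by the methods of the study, the second made up of the E17.5 library and the adult replicates numbered 2, and pairs of libraries shared at most 84 cell barcodes. All 6 epithelial markers were detected in every library, and the summed level of 8 cTEC markers was 1680 CPM at E13.5, 8912 to 17394 CPM in the other cTEC libraries and 1012 to 1104 CPM in the mTEC libraries. The 11 thymocyte markers of the table summed to 5.97 to 104 CPM, highest in adult cTEC replicate 2, and *Dcn*, a mesenchymal gene, stood at 499 and 310 CPM in adult cTEC against at most 78.4 CPM elsewhere. In sums over cells of a library, fewer cells expressing a gene and less RNA per cell cannot be told apart.

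*Myc*, the founding activator, was detected in all 8 libraries and was lowest in the fetal ones. It stood at 16.1 CPM (14.1 to 18.3) in E13.5 TEC, 17.1 CPM (15.6 to 18.8) in E15.5 cTEC, 17.3 CPM (16.5 to 18.2) in E17.5 cTEC, 26.8 CPM (24.7 to 28.9) in NB cTEC, 36.6 CPM (29.0 to 45.6) and 45.8 CPM (39.4 to 52.9) in adult cTEC, and 55.0 CPM (51.5 to 58.7) and 25.8 CPM (24.6 to 27.0) in adult mTEC. The 3 fetal libraries did not differ beyond counting error, and NB cTEC lay above them and below both adult cTEC libraries. The adult mTEC replicates lay on opposite sides of the adult cTEC replicates, so that their spread was larger than the difference between the lineages.

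*Mycn* and *Mycl*, the other activators, had their highest library values at E13.5. For *Mycn* the interval there overlapped that of adult mTEC replicate 1, so these 2 libraries were not ranked beyond counting error. *Mycn* stood at 6.22 CPM (90 UMIs) in E13.5 TEC, 1.06 CPM (29 UMIs) in E15.5 cTEC, 1.36 CPM (122 UMIs) in E17.5 cTEC, 0.519 CPM (12 UMIs) in NB cTEC, 0 and 0.248 CPM (0 and 1 UMI) in adult cTEC, and 5.11 and 2.23 CPM (85 and 150 UMIs) in adult mTEC. Of the 90 UMIs at E13.5, 29 lay in a cluster of 104 cells with thyroid and mesenchymal markers. E13.5 cells with the cortical transcripts *Psmb11* or *Prss16*, without cells gated by parathyroid or thyroid genes, had 4.42 CPM of *Mycn*. That value was not above the 5.11 CPM of adult mTEC replicate 1. The 0 in adult cTEC replicate 1 allows a level of up to 1.39 CPM (3 counts). The intervals of each adult cTEC library overlapped those of E15.5 and E17.5 cTEC. *Mycl* stood at 20.5 CPM in E13.5 TEC, 2.98 CPM in E15.5 cTEC, 2.32 CPM in E17.5 cTEC, 1.51 CPM in NB cTEC, 11.1 and 5.69 CPM in adult cTEC, and 9.44 and 7.10 CPM in adult mTEC. It was thus low between E15.5 and birth, and every adult library lay above every library of that span.

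*Max*, the shared partner, varied least, with 2.15 times between its lowest and highest library. Its levels from E13.5 to newborns, stage by stage, were 43.6, 51.0, 31.7 and 54.3 CPM, with values at 66.7 and 59.2 CPM in adult cTEC, and at 54.4 and 31.1 CPM in adult mTEC. The 2 lowest values, in E17.5 cTEC and adult mTEC replicate 2, both belonged to the second data set, and in both adult lineages the replicate of that set was the lower one.

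Among the antagonists, *Mxd1*, known as a gene of differentiating cells, spread the most, with 33.0 times between its lowest and highest library. It stood at 4.49 CPM in E13.5 TEC, 3.27 CPM in E15.5 cTEC, 2.20 CPM in E17.5 cTEC, 6.05 CPM in NB cTEC, 26.9 and 14.4 CPM in adult cTEC, and 61.3 and 72.6 CPM in adult mTEC. As whole libraries the adult ones lay above the younger ones, and both mTEC libraries above both cTEC libraries. In cells with the cortical transcripts *Psmb11* or *Prss16* alone, the adult cTEC levels were 21.7 and 5.48 CPM, the latter not above that of the newborn library. *Mxd3*, the member of its family known to be expressed in proliferating cells, ran the other way, with 15.7 and 19.8 CPM at E13.5 and E15.5, 7.37 CPM at E17.5, 9.03 CPM in newborns and 2.78 to 4.43 CPM in the 4 adult libraries.

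*Mxd4* was the antagonist with the most UMIs, 29256 in all, and it stood at 20.2 CPM in E13.5 TEC, 84.5 CPM in E15.5 cTEC, 207 CPM in E17.5 cTEC, 111 CPM in NB cTEC, 115 and 102 CPM in adult cTEC, and 63.5 and 55.8 CPM in adult mTEC. E13.5 TEC, the only library of total TEC, was its lowest. *Mxi1* was likewise highest in E17.5 cTEC, at 40.5 CPM (39.2 to 41.9), against 12.8 to 22.5 CPM in the other cTEC and E13.5 libraries and 8.30 and 8.85 CPM in adult mTEC. The E17.5 library also had the highest sum of 8 erythroid markers, at 349 CPM against 0.562 to 167 CPM in the others, and 2067 of its cells lay in a cluster led by haemoglobin genes. Without the 15 cells of 5 or more haemoglobin UMIs, *Mxd4* stood at 206.9 CPM and *Mxi1* at 40.5 CPM there, with 47.5 CPM of haemoglobin UMIs left in place of 348 CPM. The part of the remaining haemoglobin, and of the data set, in these levels was not tested. *Mnt*, an antagonist present in most cell types, ranged from 4.99 CPM in adult mTEC replicate 2 to 16.9 CPM in NB cTEC. *Mga*, a large protein with a second DNA-binding domain of the T-box type, stood between 36.1 and 63.0 CPM in the 6 other libraries and at 28.6 and 26.3 CPM in adult mTEC.

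**Figure D1:**
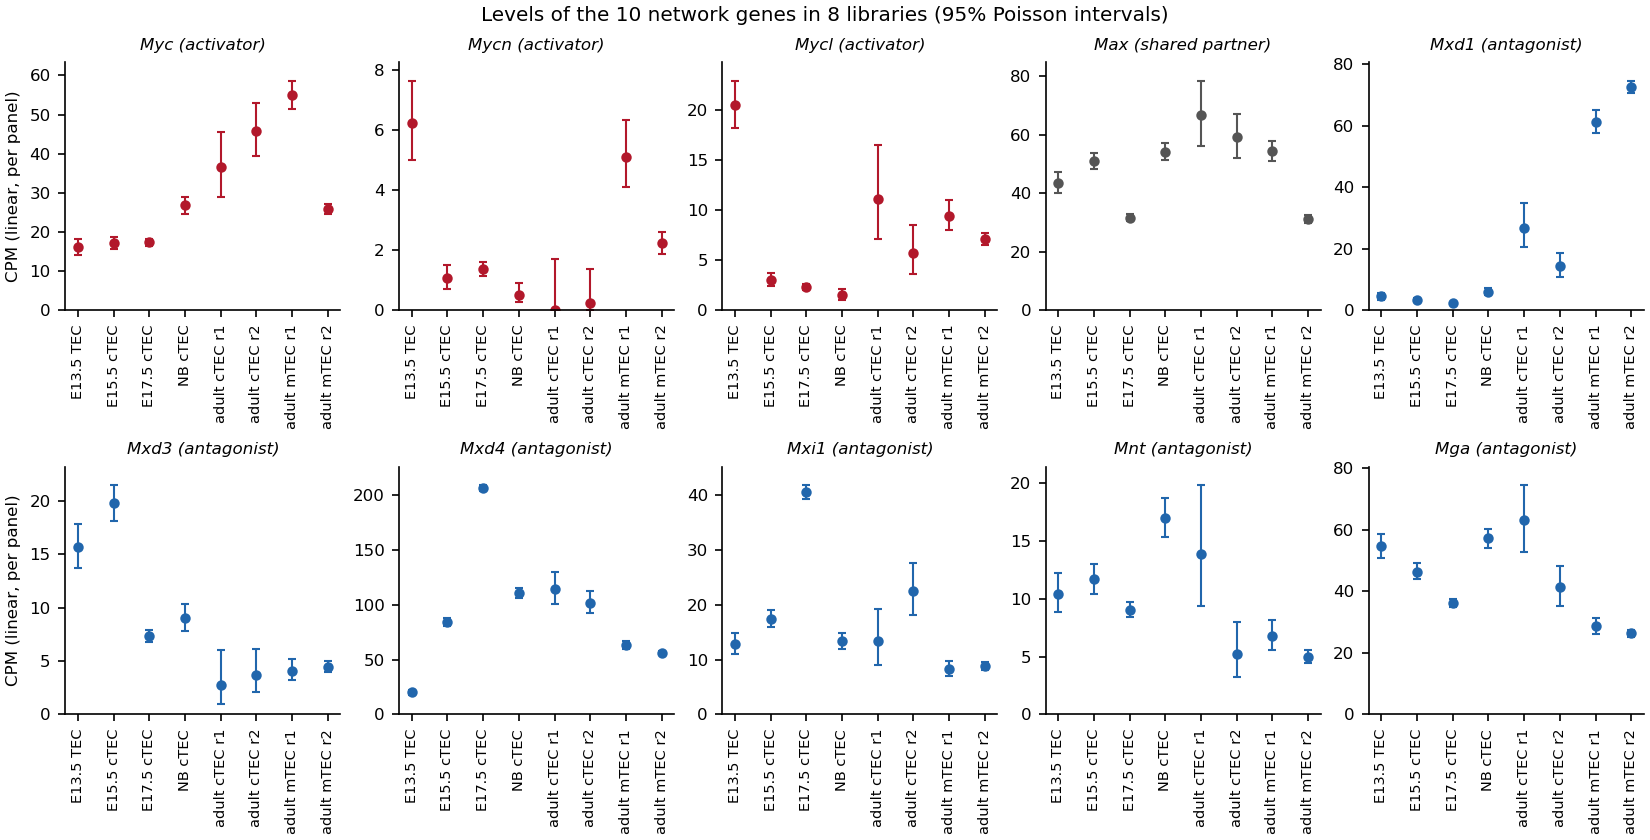
Level of each of the 10 genes in each of the 8 libraries, in CPM on a linear axis of its own per panel; points are the library values and bars the 95% Poisson intervals, with activators in red, *Max* in grey and antagonists in blue. *Mycl* peaks in E13.5 TEC (20.5 CPM), *Mxd1* in adult mTEC (61.3 and 72.6 CPM), and *Mxd4* and *Mxi1* in E17.5 cTEC (207 and 40.5 CPM). *Mycn* stands at 6.22 CPM in E13.5 TEC, with an interval that overlaps that of adult mTEC replicate 1 (5.11 CPM).

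The balance of the network was described as the share of activator UMIs (*Myc*, *Mycn*, *Mycl*) among activator and antagonist UMIs, without a test. Activators held 26.6% (exact binomial 95% interval 24.8 to 28.4) in E13.5 TEC, 10.4% (9.58 to 11.2) in E15.5 cTEC, 6.51% (6.23 to 6.80) in E17.5 cTEC and 11.9% (11.05 to 12.8) in NB cTEC. They held 16.9% (14.0 to 20.1) and 21.5% (18.9 to 24.2) in adult cTEC, and 28.7% (27.3 to 30.1) and 16.9% (16.3 to 17.52) in adult mTEC. The share was thus lower at each fetal stage than at the one before and stood higher again after birth, with the adult mTEC replicates further apart than the adult cTEC replicates. E17.5 cTEC was the only fetal or newborn library of the second data set, so stage and data set cannot be told apart there. The intervals of E15.5 and NB cTEC, both of the first data set, overlapped. *Myc* itself had nearly the same level in the 3 fetal libraries, while *Mycl* went from 20.5 to 2.32 CPM and *Mxd4* from 20.2 to 207 CPM. *Mxd4* made up 9.86% of all member UMIs in E13.5 TEC and 58.3% in E17.5 cTEC. The same order of the fetal and newborn stages held when *Mga* was left out (40.2, 13.4, 7.33 and 15.6%), and in resting cells alone (26.9, 10.52, 6.53 and 12.1%).

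**Figure D2:**
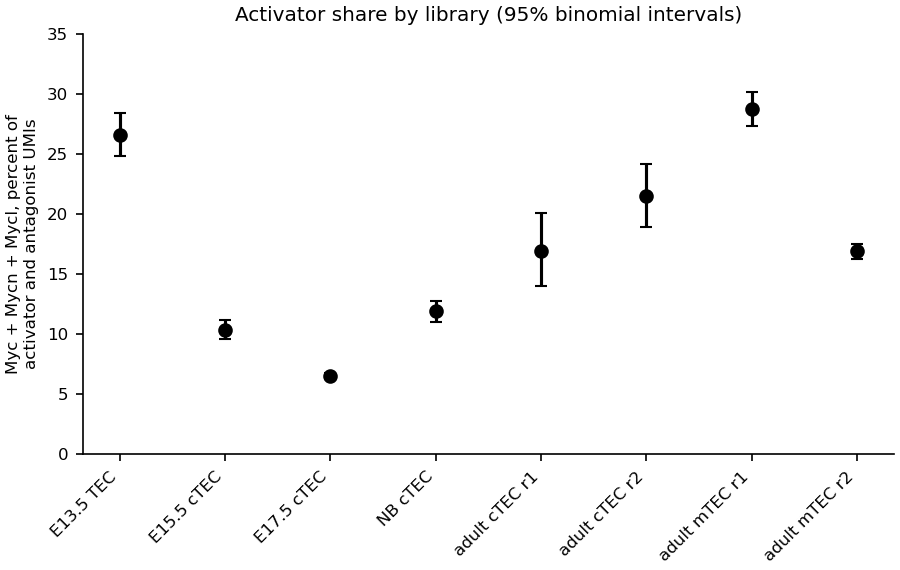
Share of UMIs of the 3 activators among UMIs of the 3 activators and 6 antagonists, in percent, in each of the 8 libraries; bars are exact binomial 95% intervals. The share is 26.6% in E13.5 TEC, lowest at 6.51% in E17.5 cTEC, and between 16.9 and 28.7% in the 4 adult libraries.

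Which members changed with age was asked by a linear slope over the stages in their order, from E13.5 TEC through the 5 cTEC libraries to adult age, with a term for the data set, in the quasi-likelihood test of edgeR. Only *Mycn* passed, and it fell by 1.21 (SE 0.27) per stage on the log2 scale with an adjusted p of 0.0471. The count of 1 of 10 members stands against 7.55% of the 14342 genes tested. *Myc* had a slope of 0.37 (SE 0.09, adjusted p = 0.0551), *Mxd1* of 0.72 (SE 0.18, adjusted p = 0.0644) and *Mxd3* of -0.54 (SE 0.16, adjusted p = 0.0963), which did not pass at 0.05 after Benjamini-Hochberg adjustment. The median slope over the members was 0.07, beside -0.00045 over all genes.

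The call of *Mycn* rested on few molecules and was lost when any single library was left out (slopes of -1.82 to -0.90, adjusted p of 0.0613 to 0.223). At E13.5, a cluster of 104 cells led by *Hhex* and *Nkx2-1*, with 3 thyroid (*Nkx2-1*, *Pax8* and *Hhex*) and 4 mesenchymal (*Col1a2*, *Col3a1*, *Lum* and *Dcn*) markers enriched, had a level of 43.7 CPM of *Mycn* and 3.01 CPM of *Myc*, and held 29 of the 90 *Mycn* UMIs of the library. Without that cluster the slope of *Mycn* was -1.10 (adjusted p = 0.0562). Cells gated by parathyroid or thyroid genes (3 or more UMIs) came first in the E13.5 gates, the latter with 49.1 CPM of *Mycn*. Of the E13.5 cells left, those with *Psmb11* or *Prss16* transcripts had 4.42 CPM of *Mycn* and 16.0 CPM of *Myc*. With DESeq2 in place of edgeR 4 members passed on the age trend, *Mycn*, *Mxd1*, *Mxd3* and *Myc* (for *Myc*, adjusted p = 0.00458, within a range of 0.00458 to 0.221 over 19 alternatives). The share of all genes that DESeq2 called is not given here, so this count stands without its background.

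Immediate early genes, the transcripts that cells switch on within minutes of a stimulus or of dissociation, moved with age as well. Their list of 17 genes without *Myc* took 0.0565 to 0.103% of UMIs in the 3 fetal libraries and 0.594 to 2.02% in the 5 postnatal ones, and 14 of the 17 rose with age, beside 7.55% of all genes called in either direction. Fetal thymi were dispersed with trypsin, and newborn and adult thymi by a longer digestion with Liberase TM and DNase I and a Percoll step, so that age and digestion cannot be told apart between the fetal and the newborn library. The newborn and adult libraries shared 1 protocol. Within each library, resting cells above the median share of immediate early UMIs were therefore compared with those at or below it. No member passed this test in edgeR (0 of 10, beside 0.0797% of 16307 genes), and DESeq2 called 0 members as well. An unadjusted p under 0.05 in edgeR was reached by 4 members, *Myc*, *Mycl*, *Max* and *Mxi1*, and by 2894 of the 16307 genes.

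*Myc* was higher in cells of high share in 6 of 8 libraries, with a log2 difference of 0.36 (SE 0.13, adjusted p = 0.219). In adult mTEC it stood at 78.7 against 40.3 CPM in replicate 1 and at 29.5 against 19.6 CPM in replicate 2. In adult cTEC it stood at 45.04 against 30.7 CPM and at 56.0 against 33.9 CPM. In the newborn library it stood at 26.6 against 28.1 CPM, and in the fetal libraries at 14.1 against 16.6, 18.9 against 17.9 and 19.2 against 17.3 CPM. All 4 adult libraries thus had more *Myc* in cells of high share, with intervals apart in adult cTEC replicate 2 and both mTEC libraries, while those of adult cTEC replicate 1 and of the fetal and newborn libraries overlapped. Over the 5 postnatal libraries alone the log2 difference was 0.57, and over the 3 fetal libraries 0.09, neither of which passed.

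Lineage was compared as adult cTEC minus adult mTEC, with 2 libraries each and a term for the data set. *Mycn* and *Mxd1* were lower in cTEC, 2 of 10 members beside 32.4% of the 15627 genes tested. For *Mxd1* the log2 difference was -1.83 (SE 0.41, adjusted p = 0.000228), with 26.9 against 61.3 CPM in replicate 1 and 14.4 against 72.6 CPM in replicate 2. For *Mycn* the fitted log2 difference was -4.34 (SE 1.28, adjusted p = 0.00546), which rests on 0 and 1 UMI in cTEC against 85 and 150 UMIs in mTEC and is no bound of the fold, and DESeq2 did not call it (adjusted p = 0.141, within a range of 0.00368 to 0.141 over 7 alternatives). *Myc* differed in opposite directions, by a log2 of -0.57 in replicate 1 and 0.80 in replicate 2 before scaling, and its fitted difference was 0.07 (SE 0.41, adjusted p = 0.922). *Mxd4*, *Mxi1* and *Mga* had fitted differences of 0.79, 0.98 and 0.83 in the direction of cTEC, with adjusted p of 0.0967, 0.0755 and 0.0971.

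The adult cTEC sort was not uniform in *Mxd1*. Cells with *Psmb11* or *Prss16* transcripts had 21.7 CPM (35 UMIs, 326 cells) in replicate 1 and 5.48 CPM (19 UMIs, 426 cells) in replicate 2. Cells without them had 41.9 CPM (23 UMIs, 167 cells) and 67.9 CPM (39 UMIs, 109 cells). These transcripts do not cleanly mark cortical cells, since 25.05 and 29.5% of adult mTEC cells had them too, and the median depth of the first adult cTEC replicate, 3996 UMIs per cell, was the lowest of all 8 libraries. In replicate 2 the level without cortical transcripts was near that of the mTEC sort, and the part of these cells in the lineage difference of *Mxd1* was not tested. In cells with cortical transcripts alone, the age slope of *Mxd1* was 0.58 (SE 0.15, adjusted p = 0.0528), and in resting cells among them 0.56 (SE 0.17, adjusted p = 0.0968), beside 0.72 in all cells and a range of adjusted p of 0.0107 to 0.426 over 19 alternatives.

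Cells were called cycling with 3 or more UMIs of *Top2a* and *Mki67* together, a topoisomerase and a nuclear protein of dividing cells, and resting with 0. There were 885 cycling and 559 resting cells at E13.5, 786 and 2013 at E15.5, 862 and 5387 at E17.5, 237 and 2682 in newborns, 4 and 414 and then 22 and 453 in adult cTEC, and 99 and 1321 and then 527 and 3703 in adult mTEC. *Mxd3* rose in cycling cells, and *Mxd4* and *Mxd1* fell, which makes 3 of 10 members beside 23.4% of the 16198 genes tested. The other 7 members, with all 3 activators and *Max*, did not pass. The 3 calls were kept in all 19 alternatives, one of which used only libraries with 50 or more cells in both fractions. The median log2 difference was -0.16 over the members and -0.16 over all genes. Cycling cells had more UMIs per cell, with median depths of 8683 to 20021 against 3772.5 to 9849 in resting cells. A gate on UMI counts itself favours deeper cells as cycling and shallower ones as resting. The part of depth in these differences was not tested.

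*Mxd3* was found mainly in cycling cells. In cycling cells it stood at 24.4 CPM at E13.5, 63.1 CPM at E15.5, 41.8 CPM at E17.5, 82.2 CPM in newborns, 78.7 CPM (3 UMIs in 4 cells) and 37.1 CPM in adult cTEC, and 33.2 and 19.3 CPM in adult mTEC. In resting cells it stood at 0.921, 1.23, 1.79 and 0.815 CPM at those ages, at 0.573 and 0 CPM in adult cTEC, and at 0.553 and 1.75 CPM in adult mTEC. The 0 of adult cTEC replicate 2 allows up to 0.921 CPM (3 counts). Every cycling value lay above every resting value, and the intervals were apart in 8 of 8 libraries. The log2 difference was 5.05 (SE 0.30, adjusted p = 3.64e-09) with the library as a block, and it was 3.81 with 1 UMI as the gate for cycling cells and 4.39 in the adult mTEC libraries alone.

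*Mxd4* and *Mxd1* ran opposite to *Mxd3*. *Mxd4* stood at 12.2 CPM in cycling against 34.7 CPM in resting cells at E13.5, 43.5 against 107 CPM at E15.5, 104 against 224 CPM at E17.5, and 51.8 against 119 CPM in newborns. It stood at 26.2 against 123 CPM and 51.9 against 107 CPM in adult cTEC, and at 31.6 against 71.6 CPM and 35.8 against 60.8 CPM in adult mTEC. Cycling cells were lower in 8 of 8 libraries, with intervals apart in all but adult cTEC replicate 1, which had 4 cycling cells, and the log2 difference was -1.19 (SE 0.14, adjusted p = 9.05e-06). *Mxd1* was lower in cycling cells in 7 of 8 libraries, E17.5 cTEC being the exception at 2.11 against 2.06 CPM, with a log2 difference of -0.95 (SE 0.17, adjusted p = 0.000858). Of the 7, adult cTEC replicate 1 shows no direction. It had 0 UMIs of *Mxd1* in 4 cycling cells, which allows up to 78.7 CPM, against 25.8 CPM in resting cells. The intervals of *Mxd1* were apart in both adult mTEC libraries, at 24.9 against 68.3 CPM and 33.0 against 86.7 CPM, and overlapped in the other 6.

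*Myc* did not separate cycling from resting cells over all 8 libraries, with a log2 difference of -0.16 (SE 0.16, adjusted p = 0.512). It stood at 16.2 against 15.3 CPM at E13.5, 13.2 against 18.4 CPM at E15.5, 11.7 against 18.2 CPM at E17.5 and 24.99 against 27.3 CPM in newborns. It stood at 26.2 against 37.8 CPM and 40.8 against 44.2 CPM in adult cTEC, and at 51.5 against 56.0 CPM and 31.3 against 23.9 CPM in adult mTEC. Cycling cells had less *Myc* at E15.5 and E17.5 and more in adult mTEC replicate 2, beyond counting error, and the other 5 libraries overlapped. In the 6 cortical libraries alone (E13.5 TEC and cTEC) the fit called *Myc* lower in cycling cells, with a log2 difference of -0.42 (adjusted p = 0.0206, range over 19 alternatives 0.0206 to 0.806), and *Mycn* higher, with 1.02 (adjusted p = 0.0204). The *Mycn* call rests on 58, 12, 30 and 5 UMIs in cycling cells from E13.5 to newborns and on 0 in both adult cTEC libraries.

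The difference between the kinds of library was tested as an interaction, cycling minus resting in the adult mTEC libraries minus the same in the 6 cortical libraries. *Myc* (0.82, SE 0.25, adjusted p = 0.0434) and *Mxd4* (0.66, SE 0.21, adjusted p = 0.0476) passed, 2 of 10 members beside 11.4% of 16198 genes. On simulated data the test of cycling against resting cells called more unchanged genes than its nominal rate, so these adjusted p and those of *Myc* and *Mycn* in the cortical libraries may be too small. Each interaction call was kept in only 3 of 15 alternatives, with adjusted p of 0.00222 to 0.490 for *Myc* and 0.0243 to 0.883 for *Mxd4*, and was lost with DESeq2, with either other scaling, and when E15.5 cTEC, E17.5 cTEC, NB cTEC, adult cTEC replicate 2 or either adult mTEC library was left out. The median interaction over all genes was 0.10 in the scaling used and -0.22 and -0.24 in the others, and in those *Myc* stood at 0.51 and 0.49 and *Mxd4* at 0.34 and 0.32. For *Myc* the 2 mTEC libraries themselves went opposite ways, and for *Mxd4* the fall in cycling cells was smaller in mTEC, by a log2 of -0.75 against -1.33. *Mycn* stood at 6.85 against 4.30 CPM at E13.5 and at 1.11 against 6.16 CPM in adult mTEC replicate 1, and its interaction of -1.25 (SE 0.66) did not pass (adjusted p = 0.238). *Max* stood between 27.4 and 50.4 CPM in cycling cells of 7 libraries, had 0 UMIs in the 4 cycling cells of adult cTEC replicate 1, which allows up to 78.7 CPM, and stood between 31.0 and 67.6 CPM in resting cells.

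**Figure D3:**
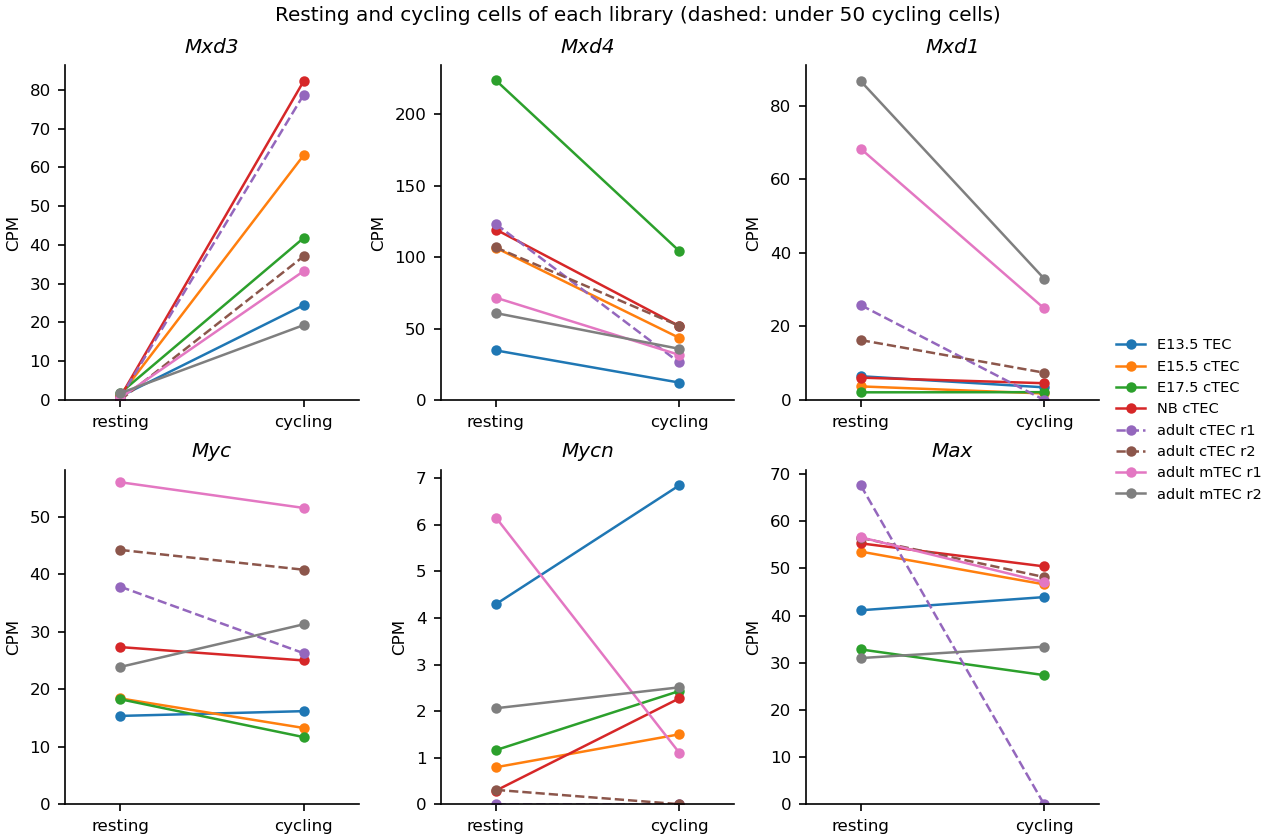
Level in resting and cycling cells of each library for 6 members, in CPM on linear axes; each line joins the fractions of 1 library and dashed lines mark the adult cTEC libraries, with 4 and 22 cycling cells. *Mxd3* rises from at most 1.79 CPM to at least 19.3 CPM in every library and *Mxd4* falls in every library, while *Myc* lines run both ways, and the 0 of *Max* in adult cTEC replicate 1 comes from 4 cells.

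Promoter stretches are shown for the members that these results turn on, *Mxd3* and *Mxd4*, and for *Mycn* and *Mnt*, whose windows hold a searched motif. RefSeq sequences of GRCm38.p6, from 250 bases before to 50 bases after a transcript start, were at hand for 9 of the 10 members in 11 windows, and not for *Myc*. The E-box CACGTG, which reads the same on both strands and is the site of Myc and Max dimers, and the E2F-type letters TTTCGCGC and TTTGGCGC on both strands were searched in the whole windows. The E-box was found in the windows of *Mxd4*, 219 bases before the start, *Mnt*, 123 bases before it, and *Max*, across the start, which is 3 of the 11 member windows beside 7.15% of all 32851 windows. The E2F-type letters were found in *Mycn* alone, at 3 places of which 2 overlap, beside 0.813% of all windows. The stretches below end before the annotated transcript, run 5′ to 3′ on the strand of the gene, and carry these letters in capitals. They lie at chr13:55329824-55329981 (minus strand), chr5:34187721-34187960 (minus strand), chr12:12941915-12942086 (minus strand) and chr11:74830674-74830919 (plus strand), and no searched letters lie in that of *Mxd3*.
Mxd3: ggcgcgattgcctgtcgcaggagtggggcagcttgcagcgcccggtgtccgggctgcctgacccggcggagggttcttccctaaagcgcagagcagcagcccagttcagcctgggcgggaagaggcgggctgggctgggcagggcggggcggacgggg
Mxd4: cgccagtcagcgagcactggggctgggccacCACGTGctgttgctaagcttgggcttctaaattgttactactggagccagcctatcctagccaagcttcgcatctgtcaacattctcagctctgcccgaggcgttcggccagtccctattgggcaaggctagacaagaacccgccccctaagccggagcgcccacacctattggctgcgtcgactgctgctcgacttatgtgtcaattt
Mycn: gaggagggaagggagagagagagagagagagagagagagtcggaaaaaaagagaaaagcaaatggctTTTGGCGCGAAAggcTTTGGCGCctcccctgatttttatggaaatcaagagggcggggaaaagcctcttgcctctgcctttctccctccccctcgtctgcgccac
Mnt: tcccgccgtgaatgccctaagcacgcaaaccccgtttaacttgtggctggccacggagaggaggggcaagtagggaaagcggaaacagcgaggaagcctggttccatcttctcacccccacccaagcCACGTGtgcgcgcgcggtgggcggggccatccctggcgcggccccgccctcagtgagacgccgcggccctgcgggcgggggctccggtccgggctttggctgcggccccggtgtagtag

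Among adult mTEC, cells were gated by their own transcripts, in the order cycling, tuft genes or keratinised genes (5 or more UMIs of the list), *Aire* (2 or more), *Ccl21a* (20 or more) and others, with no member used in a gate. *Aire* drives the display of tissue antigens in mature mTEC, and *Ccl21a* encodes a chemokine that draws thymocytes to the medulla. Each class was compared with the mean of the other classes, with the library as a block. The cycling class held the 99 and 527 cells above, and its calls, *Mxd3* higher and *Mxd1* and *Mxd4* lower, are 3 of 10 members beside 22.9% of the 15477 genes tested. *Mxd3* stood at 33.2 and 19.3 CPM in that class and at 0 to 2.12 CPM in the others, where the 0 in the 42 tuft cells of replicate 1 allows up to 6.45 CPM, with a log2 difference of 4.72 (SE 0.44, adjusted p = 9.09e-05).

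*Mxd1* passed in 4 of the 6 classes. It stood at 25.1 and 39.3 CPM (replicates 1 and 2) in the *Ccl21a* class, 24.9 and 33.0 CPM in cycling cells, 67.2 and 62.4 CPM in the *Aire* class, 97.9 and 103 CPM in the keratinised class, 127 and 87.1 CPM in the tuft class and 73.5 and 99.0 CPM in the others. Both replicates thus placed the *Ccl21a* and cycling classes lowest, *Aire* between, and the keratinised and tuft classes among the highest. *Mxd1* rose in the keratinised class by 0.77 (SE 0.17, adjusted p = 0.0247) and in the tuft class by 0.73 (SE 0.19, adjusted p = 0.0413) on the log2 scale, and fell by 1.07 (SE 0.20, adjusted p = 0.00341) in the *Ccl21a* class. The tuft call was lost when the tuft and keratinised gates were set to 10 UMIs (log2 difference 0.39, adjusted p = 0.142, range over 6 alternatives 0.00506 to 0.142), and the tuft class of replicate 1 held only 42 cells. In replicate 2 it held 472 cells, while the cluster led by tuft genes such as *Gng13* and *Avil* held 152, so that most gated cells lay outside that cluster.

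*Myc* was highest in the *Ccl21a* class of both replicates, though in replicate 2 its interval overlapped those of cycling cells, the *Aire* class and the others. It stood there at 78.7 CPM (69.9 to 88.4) and 32.5 CPM (27.1 to 38.6), against 47.9 and 25.4 CPM in the *Aire* class, 48.5 and 22.9 CPM in the keratinised class, 51.5 and 31.3 CPM in cycling cells, and 32.2 and 19.8 CPM in the tuft class, its lowest. The rise in the *Ccl21a* class was 0.64 (SE 0.13, adjusted p = 0.00515) and the fall in the tuft class -0.68 (SE 0.16, adjusted p = 0.0322) on the log2 scale. In the *Ccl21a* class 16 of 17 immediate early genes rose as well, with a median log2 difference of 1.002, beside 39% of all genes called in either direction. In the tuft class 11 of 17 fell, with a median of -0.66, beside 10.2% of all genes, and their part in the *Myc* differences was not tested. *Mycl* (13.7 and 13.9 CPM) and *Mxd4* (81.2 and 82.1 CPM) were also higher in the *Ccl21a* class, by 0.81 (SE 0.28, adjusted p = 0.0455) and 0.61 (SE 0.10, adjusted p = 0.00215), the former lost in 4 of 6 alternatives.

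With *Myc*, *Mycl* and *Mxd4* higher and *Mxd1* lower, 4 of 10 members passed in the *Ccl21a* class, beside 39% of genes. In the tuft class 2 of 10 passed beside 10.2%, and in the keratinised class 1 of 10 beside 11.4%. In the *Aire* class 1 of 10 passed beside 14.4%, namely *Mxi1*, which fell by 0.995 (SE 0.28, adjusted p = 0.0433), with 3.70 and 5.98 CPM against 14.5 and 11.4 CPM in the *Ccl21a* class. That call was kept in 5 of 6 alternatives (adjusted p of 0.0282 to 0.0505) and lost when the class of others was left out. In the others 0 of 10 passed in edgeR, beside 0% of genes. An unadjusted p under 0.05 was reached there by 1 member, *Mxd1*, and by 1406 of the 15477 genes tested. The share of activator UMIs was highest in the *Ccl21a* class of replicate 1 (37.0%) and in the cycling class of replicate 2 (22.9%), and lowest in the tuft class of replicate 1 (17.4%) and the tuft and keratinised classes of replicate 2 (both 13.1%). The *Ccl21a* class of replicate 2 stood at 22.4% and the cycling class of replicate 1 at 31.5%, and the intervals of these classes overlapped in both replicates.

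**Figure D4:**
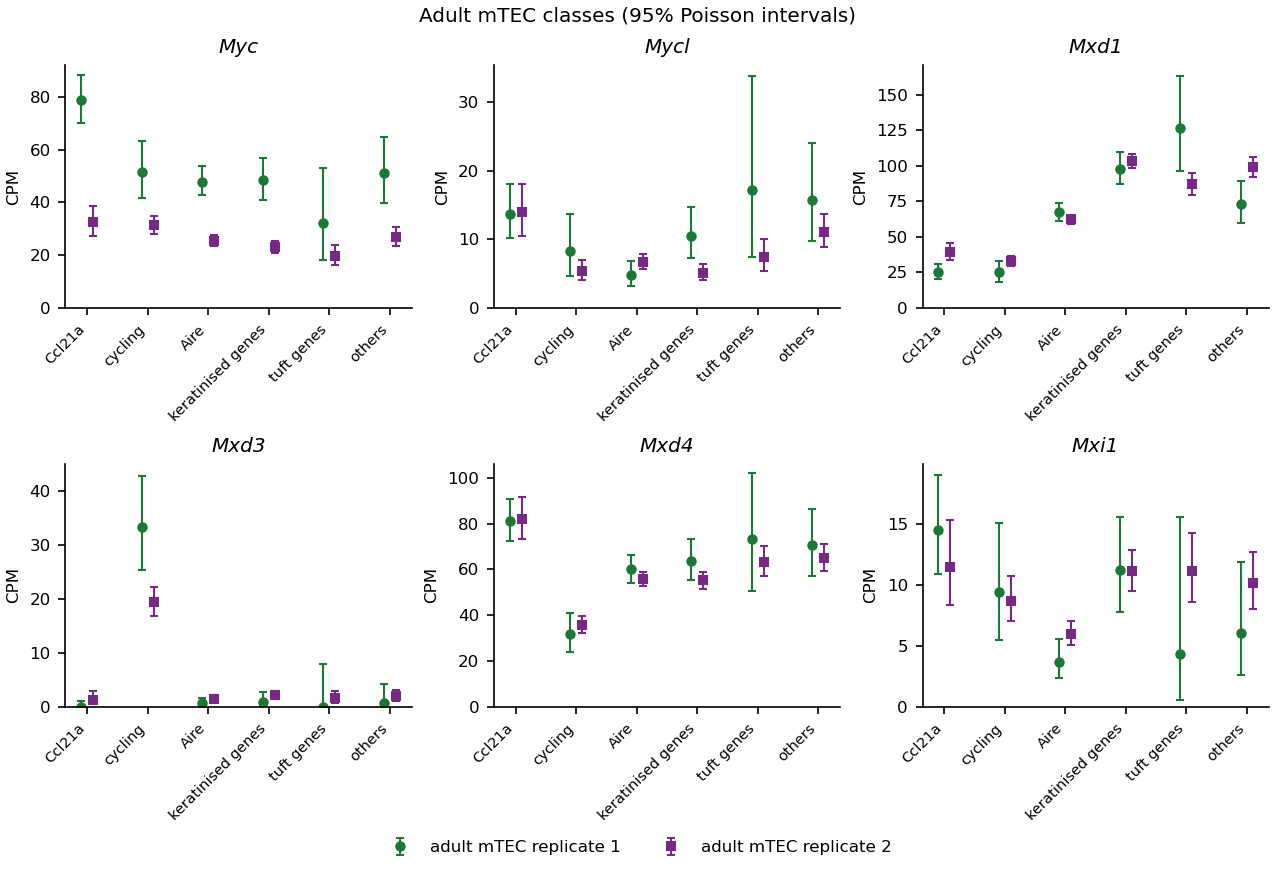
Level of 6 members in the 6 classes of adult mTEC, in CPM on linear axes, with replicate 1 as green circles, replicate 2 as purple squares and 95% Poisson intervals as bars. *Mxd3* stands out in the cycling class (33.2 and 19.3 CPM), *Mxd1* is lowest in the *Ccl21a* and cycling classes, and *Myc* is highest in the *Ccl21a* class (78.7 and 32.5 CPM).

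**Figure D5:**
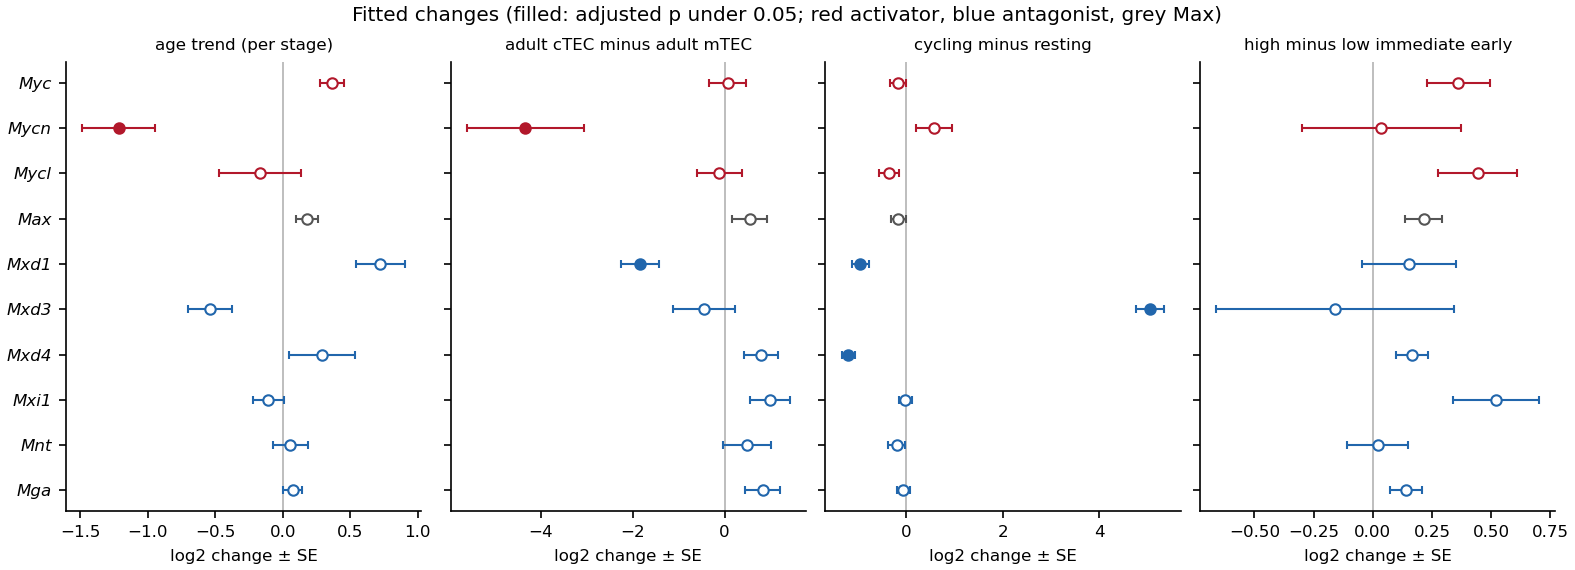
Fitted log2 differences with their standard errors for the 10 members in 4 comparisons: slope per stage, adult cTEC minus adult mTEC, cycling minus resting cells, and cells of high minus low immediate early share. Filled points passed an adjusted p of 0.05 in edgeR: *Mycn* in the first, *Mycn* and *Mxd1* in the second, *Mxd1*, *Mxd3* and *Mxd4* in the third and none in the last.

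Around the network, 61 genes known as induced by Myc, mainly of ribosome biogenesis and nucleotide supply, were followed as a list. With age 0 rose and 6 fell (*Cdk4*, *Dctpp1*, *Grwd1*, *Ldha*, *Npm1* and *Ung*), a share near the 7.55% of all genes that passed. The median slope was -0.20 over the list beside -0.00045 over all genes. The share of cycling cells fell as well, from 47.7% at E13.5 to 0.811 and 4.11% in adult cTEC, and its part in these slopes was not tested. *Npm1*, a nucleolar chaperone, fell by 0.45 (SE 0.09, adjusted p = 0.0338) and *Ldha*, a glycolytic enzyme, by 0.60 (SE 0.10, adjusted p = 0.0246) per stage. In cycling cells 21 rose and 0 fell (median 0.34 beside -0.16, with 23.4% of all genes called), and in the cycling class of adult mTEC 47 rose and 0 fell (median 0.86 beside -0.04, with 22.9% called). In the tuft class 0 rose and 23 fell (median -0.51, with 10.2% of all genes called), and in the keratinised class 2 rose and 23 fell (median -0.40, with 11.4% called). In the *Ccl21a* class 7 rose and 7 fell (median 0.08 beside -0.07), a smaller share than the 39% of all genes called there. In adult cTEC against adult mTEC 4 were higher and 7 lower (median -0.47 beside -0.14), again a smaller share than the 32.4% of all genes. Cells of high immediate early share differed in none of the 61 in edgeR.

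Of 7 genes known as repressed by Myc, *Gadd45a*, a growth arrest gene, rose with age (0.92, SE 0.19, adjusted p = 0.0385), and the other 6 did not pass. In cycling cells *Cdkn1a*, *Cebpa* and *Gadd45a* fell and *Cdkn1b*, a cyclin kinase inhibitor, rose by 0.62 (SE 0.13, adjusted p = 0.00271). In adult cTEC against adult mTEC *Cdkn1b* was higher and *Cdkn2b* lower, beside 32.4% of all genes called. Of 9 Sin3 and NCoR corepressor genes, 0 passed with age and 5 rose in cycling cells (*Hdac1*, *Hdac2*, *Rbbp4*, *Rbbp7* and *Sap30*), beside 7.55 and 23.4% of all genes called, led by *Sap30* with 1.03 (SE 0.14, adjusted p = 3.86e-05). Of 6 E-box factors outside the network, *Tfap4* alone rose in cycling cells (0.67, SE 0.16, adjusted p = 0.0059), and 0 passed with age or between the lineages.

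Among 12 tested genes that act on Myc protein or RNA, 4 fell with age and 0 rose, beside 7.55% of all genes called. *Skp2*, a ubiquitin ligase subunit, stood at 60.0, 27.8, 11.1 and 11.2 CPM from E13.5 to newborns and at 3.24 and 5.45 CPM in adult cTEC. *Igf2bp1*, which binds and protects *Myc* RNA, stood at 68.3, 9.86, 1.97 and 0.216 CPM and at 0.927 and 0 CPM. The newborn and adult values rest on 5, 2 and 0 UMIs, the 0 allowing up to 0.743 CPM (3 counts), so that its slope of -2.36 (SE 0.30, adjusted p = 0.012) depends on few molecules at the older end. *Aurka*, a mitotic kinase, and *Igf2bp2* were the others, with slopes of -0.89 and -0.63. *Skp2* and *Aurka* also rose in cycling cells, by 2.16 and 4.38 on the log2 scale, and the share of cycling cells fell from 47.7% at E13.5 to 0.811 and 4.11% in adult cTEC. Between adult cTEC and mTEC, *Fbxw7*, the subunit that marks Myc for degradation, *Gsk3b*, *Igf2bp2* and *Igf2bp3* were higher in cTEC and *Igf2bp1* lower, beside 32.4% of all genes called.

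By their pattern over the 8 libraries (Pearson r of log2(CPM + 10), given as a description), *Myc* was most like *Ankrd13c* (0.977), *Fam174a* (0.963) and *Tob1* (0.955). *Mxd1* was most like *Srgn* (0.995), *Slpi* (0.994) and *Sncg* (0.993), and *Mxd4* most like *BC026585* (0.979), *Nagk* (0.975) and *Ubald1* (0.965). *Mxi1* was most like *Pax1* (0.946), *Ndufa6* (0.945) and *Jag2* (0.943), *Max* most like *Osbpl9* (0.955), *Fdx1* (0.952) and *Pdcl3* (0.949), and *Mga* most like *Ankrd17* (0.990), *March7* (0.988) and *Golim4* (0.983). The libraries share data sets, depth and lineage makeup, and about 5983 genes were ranked for each member.

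Cells that were set aside carried the network in other proportions. A parathyroid-like cluster of 124 cells at E13.5 had 0 UMIs of *Myc* in 583264, which allows up to 5.14 CPM, beside 36.0 CPM of *Mxd3* and 90.9 CPM of *Mxd4*, where the TEC of that library had 16.1, 15.7 and 20.2 CPM. A thymocyte-like cluster of 169 cells in the newborn library had 20.8 CPM of *Myc*, 70.8 CPM of *Max* and 136 CPM of *Mxd4*. At E13.5, 122 cells with *Krt5* and without *Psmb11* or *Prss16* transcripts had 48.5 CPM of *Mycl*. Cells with these cortical transcripts, with or without *Krt5*, had 19.8 CPM. Both values leave out cells gated by parathyroid or thyroid genes, and they are single values with no test.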

How the data were processed

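The 8 libraries were made with the 10x Chromium 3′ v2 chemistry and deposited as UMI counts per gene and cell. The authors processed the reads with Cell Ranger 2.0.1 (STAR 2.5.1b, bcl2fastq 2.17) against mm10, per the labels, while the header of the data set 2 matrices names 3.0.1. Cells above 5% mitochondrial UMIs or above 5000 genes were dropped, and the remainder was clustered (leidenalg 0.10.2), and no doublet caller was run. For data set 2 the cells left differ in number from those the study states. Counts were summed per library, or per library and cell fraction, and tested with the quasi-likelihood test of edgeR 4.0.16 (R 4.3.3) after filterByExpr and TMM scaling, with Benjamini-Hochberg adjustment over all genes tested and a threshold of 0.05. DESeq2 1.42.0 was an alternative. The tests were also run on simulated data, where the cycling test called more unchanged genes than its nominal rate. Members, lists and gates were chosen with earlier results of these data known. Genes were named where they are members, or passed the threshold in a list, or were among the 3 of highest r. Libraries are the replicates, and p-values measure only the spread between these samples, which may be technical. Intervals cover counting error only. Other libraries of the study were not used here.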

Additional observations from a re-analysis of the deposited data

Results flagged for a closer look

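The difference between cycling and resting cells passed a test of its own difference between adult mTEC and the 6 cortical libraries for *Myc* (difference of 0.82 on the log2 scale, SE 0.25) and *Mxd4* (0.66, SE 0.21), by the interaction term in edgeR (adjusted p = 0.0434 and 0.0476). Within the cortical libraries *Myc* was lower in cycling cells by a log2 of -0.42 and within adult mTEC it differed by 0.34 (adjusted p = 0.169), while *Mxd4* was lower in both, by -1.33 and -0.75. The test of cycling cells called more unchanged genes than its nominal rate on simulated data, and each call was kept in only 3 of 15 alternatives, all chosen after seeing the data. Adult cTEC contributed 4 and 22 cycling cells, and whether depth or the kinds of cells in each library had a part was not tested.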

How the results depend on the processing

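Of the 19 member results that passed, 142 of 184 tested alternatives kept the call and 0 of 192 changed sign. The other 91 results changed sign in 66 of 984 alternatives, none of them called. On the age trend, where 1 member passed, 0 passed without the filter on low counts, with all cells within the limits, with all deposited cells, in resting cells, in data set 1 and, in alternatives chosen after seeing the data, without the *Hhex* and *Nkx2-1* cluster and in resting cells with cortical transcripts, against 4 with DESeq2, 2 without the data-set term and 0 to 2 when a library was left out. Between adult cTEC and mTEC, 1 passed with DESeq2 instead of 2, and in cycling cells 5 passed in the 6 cortical libraries instead of 3. The shares of all genes called in the alternatives of this section are not given, so these counts of members stand without a background. In the interaction of cycling with the kind of library, where 2 passed, 0 passed with median-of-ratios scaling, library size scaling, DESeq2 or a gate of 1 UMI, 1 without the filter on low counts or with a gate of 5 UMIs, and 0 to 4 when a library was left out, in alternatives chosen after seeing the data. Library size scaling also moved the median of all genes by -0.20 and 0.12 in the cycling and tuft classes of mTEC. *Myc* changed sign between adult cTEC and mTEC without the data-set term (-0.0096) and without replicate 2 of either group (-0.80, a value with no test, against 0.75 without replicate 1), and in cycling cells in the adult mTEC libraries alone (0.34), and the cause was not tested. Without *Mga* the activator share was 40.2, 13.4, 7.33 and 15.6% from E13.5 to newborns, 21.7 and 25.9% in adult cTEC and 32.6 and 19.3% in adult mTEC. Without *Mxi1* it was 28.9, 11.3 and 7.44% from E13.5 to E17.5 and 17.6% in adult mTEC replicate 2. In cells with cortical transcripts it was 13.9% in adult cTEC replicate 1 and 18.2% in adult mTEC replicate 2, and in resting cells 15.03% in the latter. The labels give no replicate numbers to pair on, and the data-set term set each adult cTEC library beside the adult mTEC library of its data set. The depth of adult cTEC (0 and 1 UMI of *Mycn*, 4 and 22 cycling cells) limits what can be said of both.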
